A study of Danio rerio with 6 samples.

Results

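Of the 21392 genes in the deposited table of translation efficiencies, 72 encode factors of translation initiation and elongation. They were chosen by gene symbol alone, as those that begin with eif and a digit or with eef1 or eef2. Of 80 such symbols, 8 were left out, namely 3 eIF2 kinases, 4 eIF4E-binding proteins and eif6, which regulate initiation or ribosome assembly and are taken up at the end. The table compares zebrafish embryos mutant for mycn, a Myc-family transcription factor, with wild-type AB embryos, both at 72 h after fertilization and kept in the same embryo medium. Embryos were dissociated with trypsin before lysis, and ribosomes were taken from fractions of a sucrose gradient. Neither the allele nor the strain background of the mutants is given in the sources used here. Each genotype had 2 Ribo-seq libraries, in which the mRNA fragments covered by ribosomes are sequenced, and 1 RNA-seq sample. The study's question, from its title, is how mycn acts on ribosome biogenesis and the intestine in a model of Feingold syndrome 1. By its usual definition a translation efficiency is the FPKM of a gene's ribosome footprints divided by the FPKM of its mRNA, both per length and per library total, so a value is relative to those of other genes. The column headers name FPKM, and the division itself is not described in the sources used here. The ratio can differ through footprints or through mRNA. In tissue from whole embryos, a different mix of cells and a different ratio within cells cannot be told apart, and because the ratios carry no abundance, the labelled tissue could not be checked against marker genes. Nor can a ratio show whether mycn mRNA was lost: mycn itself had 0.429 and 0.342 in mutants, against 0.446 and 0.302 in wild type, and overlapped.

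Initiation places a ribosome on the start codon. The factor eIF2 brings the initiator tRNA, eIF1 and eIF1A hold the scanning small subunit ready for a start codon, and eIF3 is the large scaffold on that subunit. The eIF4 factors bind the mRNA cap, unwind the leader and join it to eIF3, after which eIF5 and eIF5B release eIF2 and join the large subunit. In elongation, eEF1A brings each aminoacyl-tRNA, its exchange factor eEF1B recharges it with GTP, and eEF2 moves the ribosome along by a codon. In mammals the mRNAs of all elongation factors and of a few initiation factors begin with a pyrimidine tract, the TOP motif, through which growth signalling sets how well they are translated.

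No translation factor passed the test between mycn mutants and wild type, and the median log2 fold of the factors lay near that of all genes. Of the 72 factors, 71 were above 0 in all 4 libraries and were tested, 32 with a positive and 39 with a negative log2 fold, mutant over wild type. The median log2 fold was -0.032, against 0.013 over all 17601 genes tested. The median efficiency over the factors was 0.637 and 0.69 in the mutant libraries, against 0.681 and 0.651 in the wild-type libraries. The median size of the log2 fold, sign aside, was 0.155 in the factors and 0.295 over all genes.

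The test was limma on log2(efficiency + 0.1) over all genes with Benjamini-Hochberg adjustment at 0.05. No gene passed it, so the share called was 0%, and the smallest adjusted p among the factors was 0.341. At an unadjusted p under 0.05 there were 2 factors higher in mutants (2.82%) and 3 lower (4.23%), beside 6.78% and 4.71% of all tested genes. The 2 mutant values both lay above the 2 wild-type values for 14 factors (19.7%) and both below for 17 (23.9%), beside 23.1% and 21.6% of all tested genes. These shares are near the background, so the counts do not set the factors apart. Groups of 2 cannot pass an exact permutation test, whose smallest two-sided p is 0.333.

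The precision of a ratio differs between factors. Identical values in different genes of a library, compared to 9 significant digits, are typical of ratios of small whole numbers and are called shared here. Of the 71 tested factors, 24 had no such shared value in any library, whereas 9 had one in all 4. Only 2626 of all 17601 tested genes had no shared value, a smaller share. Replicate gaps and fold sizes of the factors are thus set beside a background with more shared values. The gap between the replicates of a genotype was measured after 0.1 was added to each efficiency, as in the test. It was more than 2-fold (1 on the log2 scale) for 6 factors (8.45%), beside 20.4% of all tested genes. All 6 were among the 9 with shared values throughout, namely eif3eb, eif3hb, eef1a2, eef2a.2, eef1akmt2 and eef2kmt. The mutant replicates of eef2a.1, at 0.366 and 0.749, stayed under this limit only through the added 0.1, and that gene had no shared value. Among genes with no shared value, the median size of the log2 fold was 0.115 in the factors and 0.161 over all such genes. That gap is smaller than the one over all tested genes given above. In the labels each genotype has a single RNA-seq sample, so both ratios of a genotype can rest on the same mRNA measurement, and the spread between replicates then leaves out its error. Nothing in the labels says whether replicates came from separate clutches, so that spread may be technical.

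**Figure D1:**
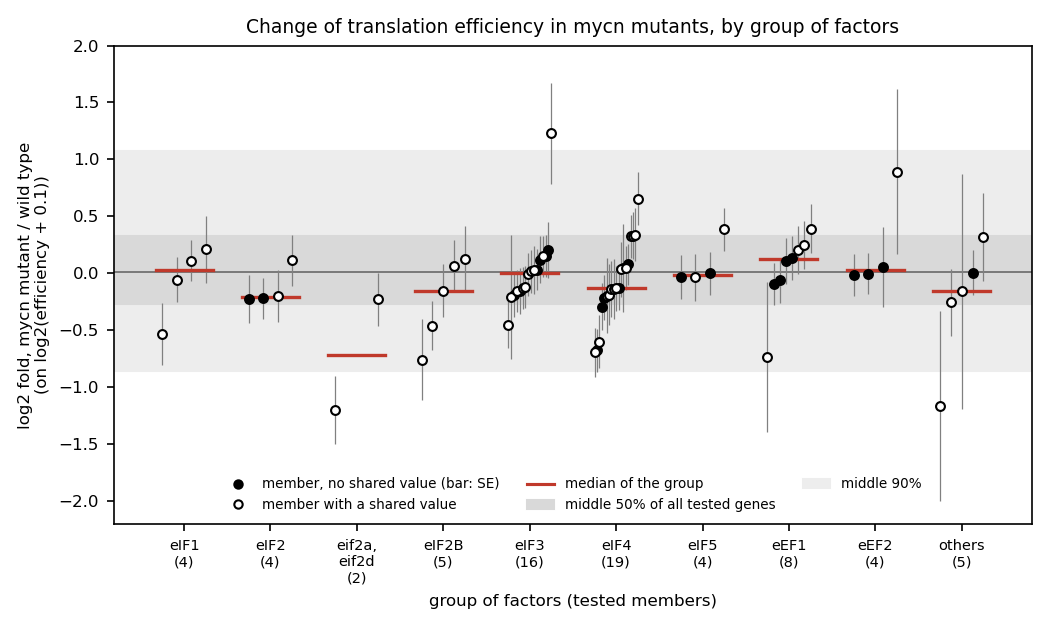
Log2 fold of translation efficiency, mycn mutant over wild type, for each tested factor (points, with the SE from limma as bars), by group, with the number of tested members below each group; filled points are factors with no shared value, open points those with at least 1, red lines are group medians, and the grey bands hold the middle 50% and 90% of all 17601 tested genes. Most factors lie inside the inner band, which runs from -0.266 to 0.331, and eif2a at -1.20 and eif3eb at 1.23 lie outside the outer one, as does eef1akmt2 at -1.17 among the others.

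No factor of start-codon selection passed the test. The eIF1 group had a median log2 fold of 0.03 over 4 members, and its sign changed without mutant replicate 1 (-0.045) or mutant replicate 2 (-0.009). Of its members, eif1b had efficiencies of 0.856 and 0.735 in mutant libraries, against 0.848 and 0.806 in wild type, and the genotypes overlapped. The eIF1A copies eif1axa and eif1axb had 0.621 and 0.954, and 0.789 and 0.728, in mutants, against 0.559 and 0.759, and 0.683 and 0.703, in wild type. For eif1axb both mutant values were narrowly above both wild-type values. The copy eif1axa overlapped, and its log2 fold was 0.21 (SE 0.294, limma adjusted p = 0.817). The eIF1A-domain protein eif1ad had 0.442 and 0.272 in mutants, against 0.517 and 0.584 in wild type. Its genotypes did not overlap, but its values were shared ones in all 4 libraries, and the log2 fold of -0.53 (SE 0.272) did not pass (limma adjusted p = 0.546).

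The subunits of eIF2 and of its exchange factor eIF2B had negative median log2 folds, and no subunit passed. In eIF2 the median log2 fold was -0.209, with 3 of 4 members negative, and -0.115 without mutant replicate 1. Of all 17601 tested genes, 8566 had negative log2 folds. The gamma subunit eif2s3, which binds GTP and the initiator tRNA, had 0.616 and 0.605 in mutants, against 0.697 and 0.757 in wild type, so its log2 fold was -0.22 (SE 0.182), with a limma adjusted p of 0.692. The alpha subunit, whose phosphorylation shuts down initiation under stress, has a pair of genes here. The copy eif2s1b had 0.637 and 0.511 in mutants, against 0.728 and 0.640 in wild type, a log2 fold of -0.22 (SE 0.210, adjusted p = 0.729), while eif2s1a had 0.881 and 1.03, against 0.991 and 0.768, and overlapped. The beta subunit eif2s2 had 0.513 and 0.706 in mutants, against 0.725 and 0.689 in wild type, and overlapped as well. The genotypes of eif2s3 and eif2s1b did not overlap, both with lower mutant values, and both had no shared value. Lower mutant values without overlap were found in 21.6% of all tested genes and 29.1% of those with no shared value. The eIF2 count was not tested against these shares.

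All 5 subunits of eIF2B lay below the median gene in wild type, with mean efficiencies from 0.40 to 0.596, and their median log2 fold was -0.152. The beta subunit eif2b2 had 0.391 and 0.311 in mutants, against 0.490 and 0.542 in wild type, for a log2 fold of -0.46 with SE 0.214 (limma adjusted p = 0.516). The gamma subunit eif2b3 had 0.305 and 0.187, against 0.628 and 0.355, a log2 fold of -0.76 (SE 0.356, adjusted p = 0.518). In both, every mutant value was below every wild-type value, although the wild-type replicates of eif2b3 were themselves far apart. The same held for 21.6% of all tested genes, and the eIF2B count was not tested against that share. The delta subunit eif2b4 had 0.590 and 0.463 in mutants, against 0.670 and 0.522 in wild type, a log2 fold of -0.15 (SE 0.233, adjusted p = 0.838), and it overlapped. The catalytic epsilon subunit eif2b5 had 0.414 and 0.429, against 0.456 and 0.344, and the alpha subunit eif2b1 had 0.476 and 0.810, against 0.562 and 0.562; these overlapped too. The eIF2B median was 0.002 once wild-type replicate 1 was left out, and -0.306 once replicate 2 was, so its sign rests on single libraries.

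The smallest p of any factor was that of eif2a, a protein distinct from the alpha subunit of eIF2 and implicated in delivering initiator tRNA to special mRNAs. Its efficiency was 0.148 and 0.283 in mutants, against 0.577 and 0.637 in wild type, a mean of 0.215 ± 0.0953 and 0.607 ± 0.0426 (SD, n = 2 each). The genotypes did not overlap and the log2 fold was -1.20 (SE 0.298), but it did not pass (limma adjusted p = 0.341). The p before adjustment by limma, a model across all genes and not an exact test, was 0.0151. Values of eif2a were shared ones in 2 libraries. Its log2 fold ran from -1.51 to -0.40 over 10 alternative analyses, with an adjusted p from 0.31 to 0.668. The related non-canonical factor eif2d had 0.609 and 0.481 in mutants, against 0.575 and 0.734 in wild type, a log2 fold of -0.23 (SE 0.231, adjusted p = 0.751), and it overlapped.

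In eIF3 the members were split evenly, 8 positive and 8 negative, with a median log2 fold of 0.006. The sign of this median changed without mutant replicate 2 (-0.018) or wild-type replicate 1 (-0.02). With all libraries kept, it also changed under quantile normalization (-0.01) and median centring (-0.019). Mean wild-type efficiencies ran from 0.48 for eif3d, the subunit that can itself bind the cap of some mRNAs, to 1.18 for eif3jb, a copy of the loosely held subunit eIF3j. In every library eif3jb was 2.42- to 2.84-fold above eif3d, so subunits of the same complex held different levels in both genotypes. The largest scaffold subunit, listed under its older symbol eif3s10, had 0.679 and 0.681 in mutants, against 0.675 and 0.651 in wild type. Another large subunit, eif3c, had 0.486 and 0.488, against 0.522 and 0.562. Replicates were close in both genes, and neither overlapped between genotypes. The log2 fold was 0.03 for eif3s10 (SE 0.179) and -0.13 for eif3c (SE 0.185).

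Subunit eif3g, an RNA-binding subunit, had 0.699 and 0.559 in mutants, against 0.879 and 0.901 in wild type, for a log2 fold of -0.45 with SE 0.204 (limma adjusted p = 0.510). Its partner eif3i, a propeller-shaped subunit, had 0.486 and 0.561, against 0.640 and 0.581, a log2 fold of -0.19 (SE 0.194, adjusted p = 0.750). For both, the mutant values were lower without overlap. The same held by smaller margins for eif3c, eif3f (0.950 and 0.969 in mutants, against 1.06 and 1.03 in wild type) and eif3ja (0.869 and 0.807, against 0.952 and 0.938). In the other direction, eif3m had 0.537 and 0.564 in mutants, against 0.478 and 0.492 in wild type, and eif3s6ip, the older symbol of eIF3l, had 0.624 and 0.619, against 0.536 and 0.563. The remaining subunits eif3ba, eif3d, eif3ea, eif3ha, eif3hb, eif3jb and eif3k overlapped between genotypes, with log2 folds from -0.21 (eif3hb) to 0.21 (eif3k).

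Among eIF3 genes, eif3eb stood apart, with 1.27 and 1.25 in mutants, against 0.765 and 0.288 in wild type. The log2 fold was 1.23 (SE 0.442, limma adjusted p = 0.429), the highest of the 71 factors. Its values were shared ones in all 4 libraries and its wild-type replicates were more than 2-fold apart. Its copy eif3ea, with closely agreeing values of 0.479 and 0.530 in mutants, against 0.494 and 0.498 in wild type, had a log2 fold of 0.02 (SE 0.188). The factor that could not be tested was eif3bb, at 0.338 and 0.832 in mutants and listed at 0 in both wild-type libraries. RefSeq (assembly GRCz12tu), in which all 72 symbols were found, annotates eif3bb as a pseudogene, the single such case among the members. The other copy, eif3ba, had 0.771 and 0.914 in mutants, against 0.984 and 0.904 in wild type.

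**Figure D2:**
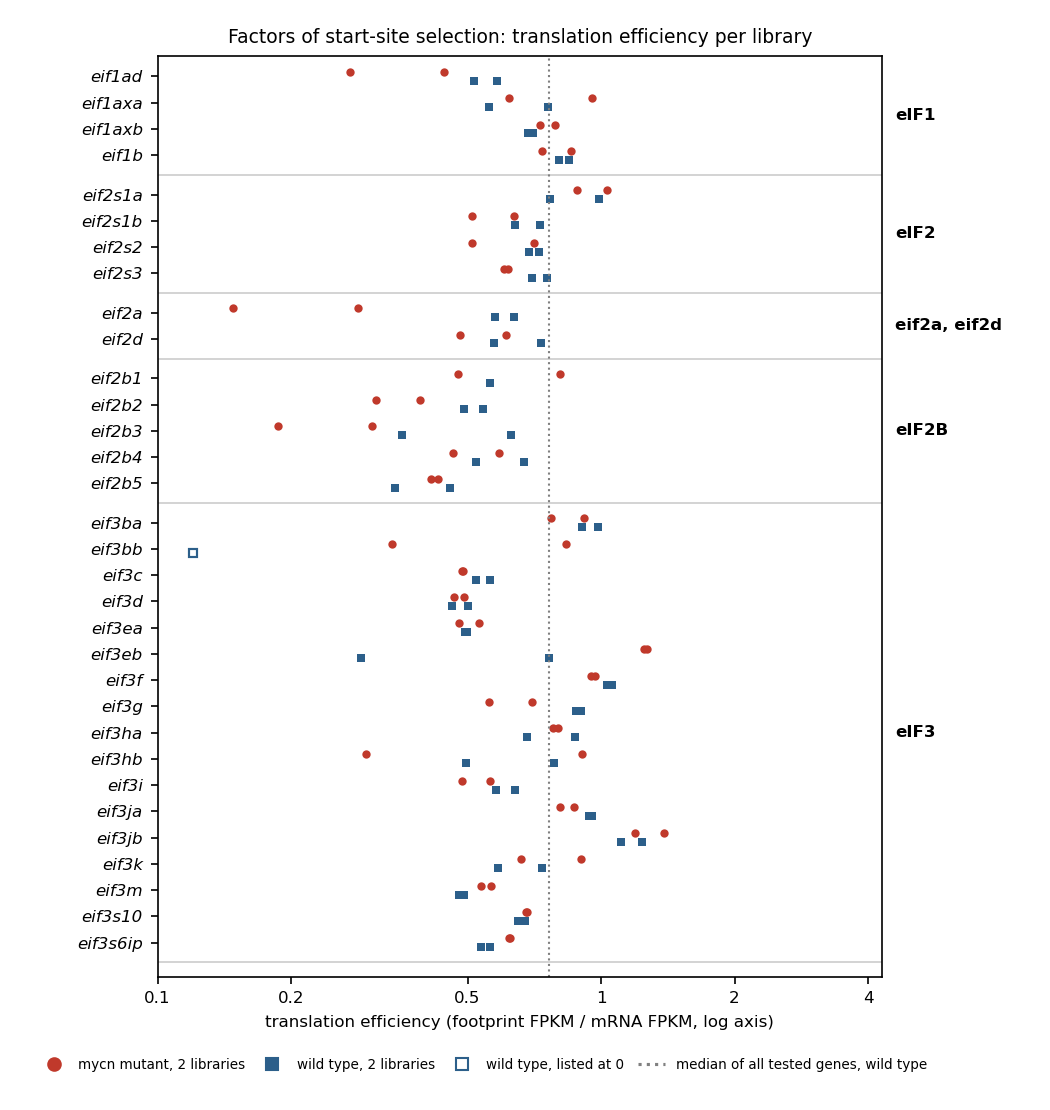
Translation efficiency on a log axis of 32 members (eIF1, eIF2, eif2a and eif2d, eIF2B, eIF3), with the 2 mutant libraries (red circles) above the 2 wild-type libraries (blue squares) in each line, and the all-gene median in wild type as a dotted line; the open square marks eif3bb, listed at 0 in wild type, which a log axis cannot place. The mutant values of eif2a, 0.148 and 0.283, lie left of its wild-type values, 0.577 and 0.637. Of the 16 tested eIF3 subunits, 4 have both mutant values above and 5 both below the wild-type values. Over all tested genes, 23.1% had both above and 21.6% both below, and the eIF3 counts were not tested against these shares.

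The eIF4 group, with 19 members, had a median log2 fold of -0.131. It was -0.03 without mutant replicate 2, -0.031 without wild-type replicate 1 and -0.056 without wild-type replicate 2. At an unadjusted limma p under 0.05, 1 member was higher in mutants (5.26%) and 2 were lower (10.5%). Over all tested genes these shares were 6.78% and 4.71%. Among the lower members was eif4a1a, which encodes eIF4A, the RNA helicase that unwinds mRNA leaders. Its efficiency was 1.06 and 1.06 in mutants, against 1.77 and 1.74 in wild type, or 1.06 ± 0.00217 and 1.76 ± 0.0209 (SD, n = 2 each). The replicates of each genotype were close together and far from the other genotype, no value was shared with another gene, and the mutant mean was 0.605 of the wild-type mean. The log2 fold was -0.67 (SE 0.188), which did not pass over all genes (limma adjusted p = 0.361). When the 2626 genes with no shared value were fitted alone, 1.37% of them were called, and of the 24 factors among them none was. In that fit eif4a1a was closest, with an adjusted p = 0.0504, and over its 11 alternatives the adjusted p ran from 0.0504 to 0.677 and the log2 fold from -0.75 to -0.42.

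The other copy of the eIF4A gene, eif4a1b, had 0.729 and 0.743 in mutants, against 0.699 and 0.682 in wild type. Its log2 fold was 0.08 (SE 0.179). Within a library, eif4a1a was 1.46- and 1.43-fold above eif4a1b in mutants, and 2.53- and 2.55-fold above it in wild type. The sources do not say how reads that match both copies were assigned. The related helicase eif4a2 had 0.534 and 0.683 in mutants, against 0.579 and 0.844 in wild type, and eif4a3, a core protein of the exon junction complex, had 0.531 and 0.531, against 0.554 and 0.468; both overlapped. The helicase cofactors eif4ba and eif4bb also overlapped, while eif4h had 0.750 and 0.826 in mutants, against 0.591 and 0.626 in wild type.

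The cap-binding proteins had log2 folds of both signs. Of 6 genes of the eIF4E family, 3 had positive and 3 negative log2 folds. The copy eif4eb had 0.782 and 0.654 in mutants, against 1.32 and 1.12 in wild type, a log2 fold of -0.69 with SE 0.214 (limma adjusted p = 0.391). Its sister copy eif4ea had 0.818 and 0.568 in mutants, against 0.714 and 0.808 in wild type, and overlapped, as did eif4e1c and eif4e3. The opposite order was found in the eIF4E2 type, which in mammals binds the cap to repress mRNAs. There, eif4e2rs1 had 1.23 and 1.05 in mutants, against 0.786 and 0.596 in wild type, a log2 fold of 0.66 with SE 0.230 (limma adjusted p = 0.422), and eif4e2 had 0.983 and 1.21, against 0.862 and 0.829. Mutant values lay above wild-type values without overlap in both, and below in eif4eb. Over all tested genes, 23.1% lay above and 21.6% below without overlap. Values were shared ones in 3 libraries for eif4e2rs1 and for eif4e2, and in 2 for eif4eb. The eIF4E partner eif4enif1, which in mammals carries eIF4E to the nucleus and to repressed mRNAs, had 1.29 and 1.69 in mutants, against 1.08 and 1.21 in wild type. Its values were shared ones in 3 libraries.

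All 5 genes of the scaffold eIF4G had negative log2 folds, from -0.60 to -0.12, and none passed. Over all 17601 tested genes, 8566 log2 folds were negative. Where 21.6% of all tested genes had lower mutant values without overlap, 3 of these 5 genes did. These were eif4g3b with 0.946 and 0.690 in mutants, against 1.29 and 1.27 in wild type, eif4g1a with 0.782 and 0.772, against 1.00 and 0.837, and eif4g2b with 0.899 and 0.738, against 0.970 and 1.07. The largest of these differences, in eif4g3b, had an adjusted p of 0.455 with limma (SE 0.232). The copies eif4g2a and eif4g3a overlapped. Both eif4g2a and eif4g2b are of the type that lacks the eIF4E-binding part in mammals.

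Of the late initiation factors, eif5 had the largest log2 fold. The gene eif5, whose product makes eIF2 hydrolyse its GTP at the start codon, had 1.07 and 1.17 in mutants, against 0.834 and 0.830 in wild type, without overlap. The log2 fold was 0.39 (SE 0.187) and did not pass (limma adjusted p = 0.527). The subunit-joining GTPase eif5b had 0.606 and 0.662 in mutants, against 0.583 and 0.724 in wild type. The genes of eIF5A, the factor with the amino acid hypusine that helps ribosomes past difficult peptide bonds, had nearly the same level in all libraries. For eif5a this was 1.17 and 1.21 in mutants, against 1.16 and 1.29 in wild type (log2 fold -0.03, SE 0.193, adjusted p = 0.962), and for eif5a2 it was 1.22 and 1.21, against 1.20 and 1.23 (log2 fold 0.00, SE 0.187).

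Most elongation factors had a translation efficiency below that of the median gene. Of 12 genes in eEF1 and eEF2, 8 lay below it in mutants and 10 in wild type, by their mean over libraries. Those above it were eef1b2, eef1a2, eef1db and eef2a.2 in mutants, against eef1b2 and eef1a2 in wild type, and the replicates of eef1a2 and eef2a.2 were far apart. Their median efficiency was 0.566 and 0.648 in mutant libraries, against 0.557 and 0.522 in wild-type libraries, beside medians of all tested genes of 0.779 and 0.779 in mutants, against 0.762 and 0.765 in wild type. The initiation factors lay between, with 0.689 and 0.731 in mutants, against 0.701 and 0.722 in wild type. They were taken by symbol as all tested eif genes, so they include eif4a3 and the eIF5A genes. The median log2 fold was 0.083 for the 12 elongation factors and -0.084 for the 54 initiation factors.

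Of the eEF1A genes, eef1a1l1 had 0.481 and 0.487 in mutants, against 0.526 and 0.520 in wild type, a log2 fold of -0.09 (SE 0.183), with no overlap. The copy eef1a1a had the lowest wild-type level of all 71 factors, with 0.382 and 0.414 in mutants, against 0.300 and 0.339 in wild type, without overlap, and its log2 fold was 0.25 with SE 0.207 (limma adjusted p = 0.690). The copy eef1a1l2 had 0.517 and 0.636, against 0.520 and 0.449. For eef1a2, the form of muscle and neurons in mammals, the values of 1.71 and 0.699 in mutants, against 1.15 and 3.11 in wild type, scattered too widely to compare (log2 fold -0.73, SE 0.657, adjusted p = 0.714). Among these copies, eef1a1l1 alone had no shared value in any library.

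The exchange factor eEF1B is a complex of the products of eef1b2, eef1d and eef1g. Its gene eef1b2 had the highest wild-type mean of all factors, with 2.25 and 2.05 in mutants, against 2.26 and 2.22 in wild type, at percentile 94.1 of all genes in wild type. Its partner eef1g had 0.600 and 0.530 in mutants, against 0.524 and 0.485 in wild type, and eef1da had 0.542 and 0.660, against 0.571 and 0.524. The ratio of eef1b2 to eef1g was 3.75 and 3.87 in mutants, against 4.31 and 4.58 in wild type. Genes whose products sit in the same complex thus held efficiencies several-fold apart in every library. For eef1db the mutant values of 0.779 and 0.941 were above the wild-type values of 0.690 and 0.573, for a log2 fold of 0.39 with SE 0.214 (limma adjusted p = 0.567). The eEF1 group had a median log2 fold of 0.123, which was 0.044 once mutant replicate 2 was left out and 0.074 once wild-type replicate 2 was.

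Genes of the translocation factor eEF2 had nearly equal levels in both genotypes where replicates were close. Of these, eef2b had 0.542 and 0.569 in mutants, against 0.544 and 0.578 in wild type, a log2 fold of -0.01 (SE 0.183). The related eef2l2 had 0.589 and 0.573, against 0.590 and 0.573. The further copies scattered, eef2a.1 with 0.366 and 0.749 in mutants, against 0.522 and 0.488 in wild type (log2 fold 0.06, SE 0.354, limma adjusted p = 0.967), and eef2a.2 with 0.696 and 2.56, against 1.01 and 0.455 (log2 fold 0.89, SE 0.725, adjusted p = 0.684). Overlap was found in all 4 of these genes. Among all tested genes 44.8% did not overlap, in either direction, and so few genes were not tested against that share.

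Taking the members whose mammalian counterparts carry TOP mRNAs, namely the elongation factors with eif3e, eif3f, eif3h and eif4b, the 19 zebrafish copies had a median log2 fold of 0.029. The other 52 factors had one of -0.126. Median efficiencies of the TOP copies were 0.542 and 0.749 in mutants, against 0.635 and 0.524 in wild type. No direction common to the TOP copies was seen, with 11 positive and 8 negative log2 folds.

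Some symbols that matched belong to enzymes and partners of elongation factors, and none of the 5 had genotypes that did not overlap. Among all tested genes 44.8% did not overlap, in either direction, and the count of these 5 was not tested against that share. The eEF2 kinase eef2k, which slows elongation, had 0.599 and 0.677 in mutants, against 0.676 and 0.592 in wild type. The eEF1A methyltransferase eef1akmt1 had 1.27 and 0.780, against 1.04 and 0.582 (log2 fold 0.32, SE 0.387, limma adjusted p = 0.792), and eef1akmt2 had 0.193 and 0.237, against 0.216 and 1.47 (log2 fold -1.17, SE 0.833, adjusted p = 0.646). The eEF2 methyltransferase eef2kmt had 0.982 and 0.603, against 0.263 and 2.50, the widest replicate gap of any factor. The tRNA-synthetase complex protein eef1e1 had 0.298 and 0.519, against 0.469 and 0.515 (log2 fold -0.25, SE 0.294, adjusted p = 0.781).

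**Figure D3:**
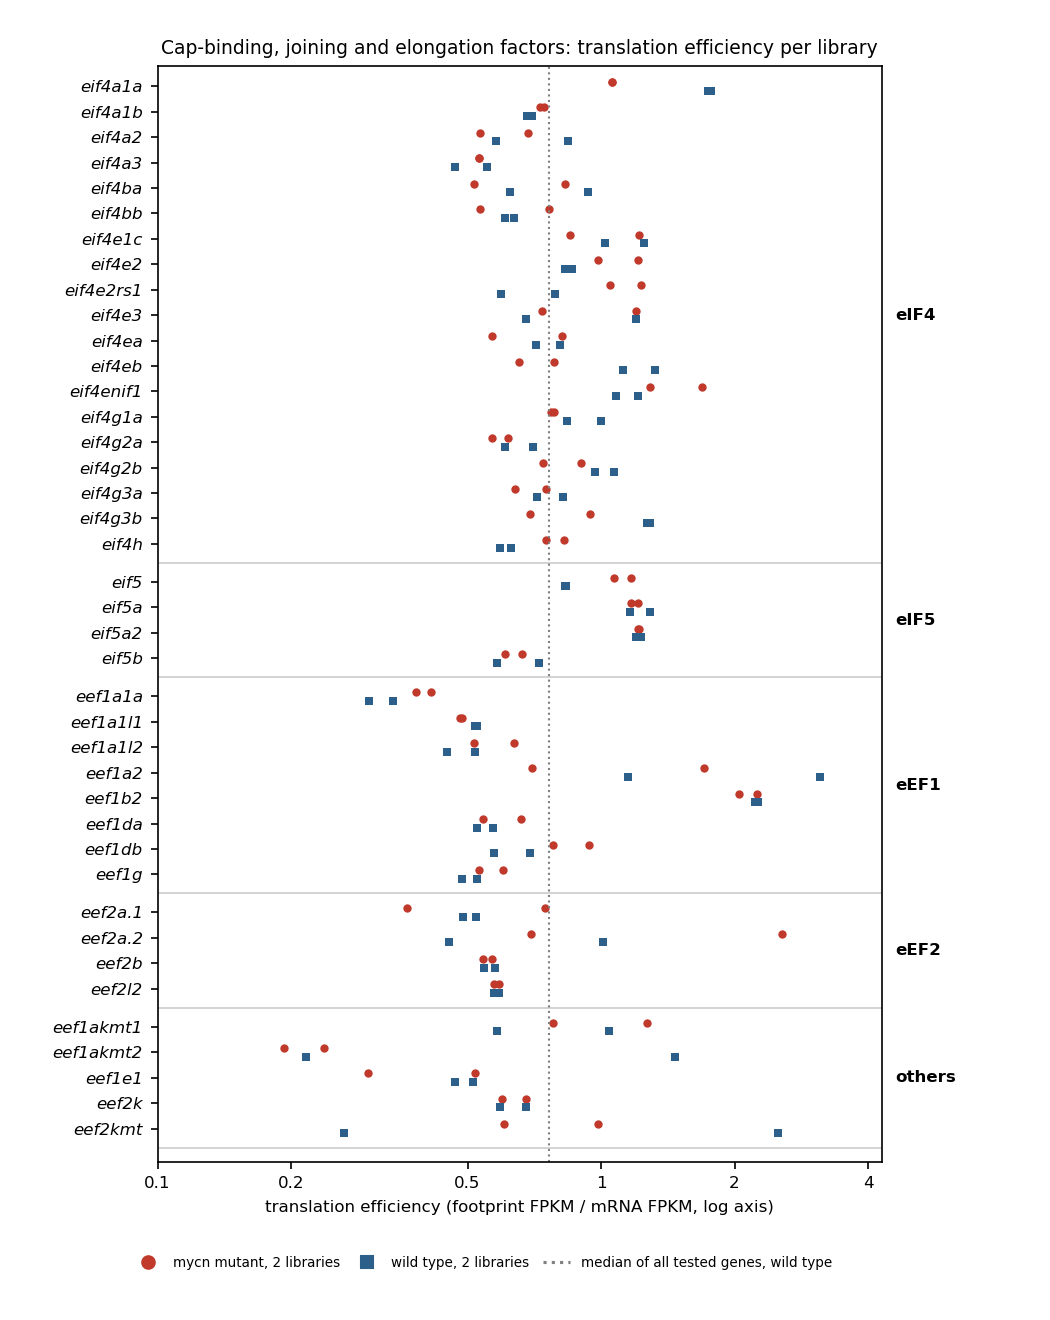
Translation efficiency on a log axis of 40 members (eIF4, eIF5, eEF1, eEF2, and the 5 enzymes and partners as others), drawn like the plot of start-site factors, with mutant libraries (red circles) above wild-type libraries (blue squares). The mutant values of eif4a1a, both 1.06, lie left of 1.77 and 1.74 in wild type, eef1b2 lies above 2 in all libraries, and eef2b and eef2l2 show no gap between genotypes.

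Zebrafish carry many factors in several copies, and the ratio of 2 copies within a library can be set side by side between genotypes. Of 19 pairs, the ratios did not overlap between genotypes in 9 (47.4%), which was not tested. Single genes did not overlap in 44.8% of all tested genes, in either direction, and no such share was computed for ratios of other gene pairs. The pairs are also not independent, as eef1a1l1 and eef2b are each in several. This count therefore does not set the pairs apart. Among the 9 were eif4a1a over eif4a1b, described above, and eif4g3a over eif4g3b. The latter had ratios of 0.794 and 0.926 in mutants, against 0.640 and 0.568 in wild type. The ratio of eif4ea to eif4eb was 1.05 and 0.869 in mutants, against 0.540 and 0.723 in wild type. That of eef1da to eef1db was 0.696 and 0.701, against 0.827 and 0.914. In contrast, eif5a over eif5a2 had 0.957 and 0.999 in mutants, against 0.965 and 1.04 in wild type, and eef2b over eef2l2 had 0.920 and 0.994, against 0.921 and 1.01. Reads that fit more than 1 copy can shift such ratios, and this was not tested.

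**Figure D4:**
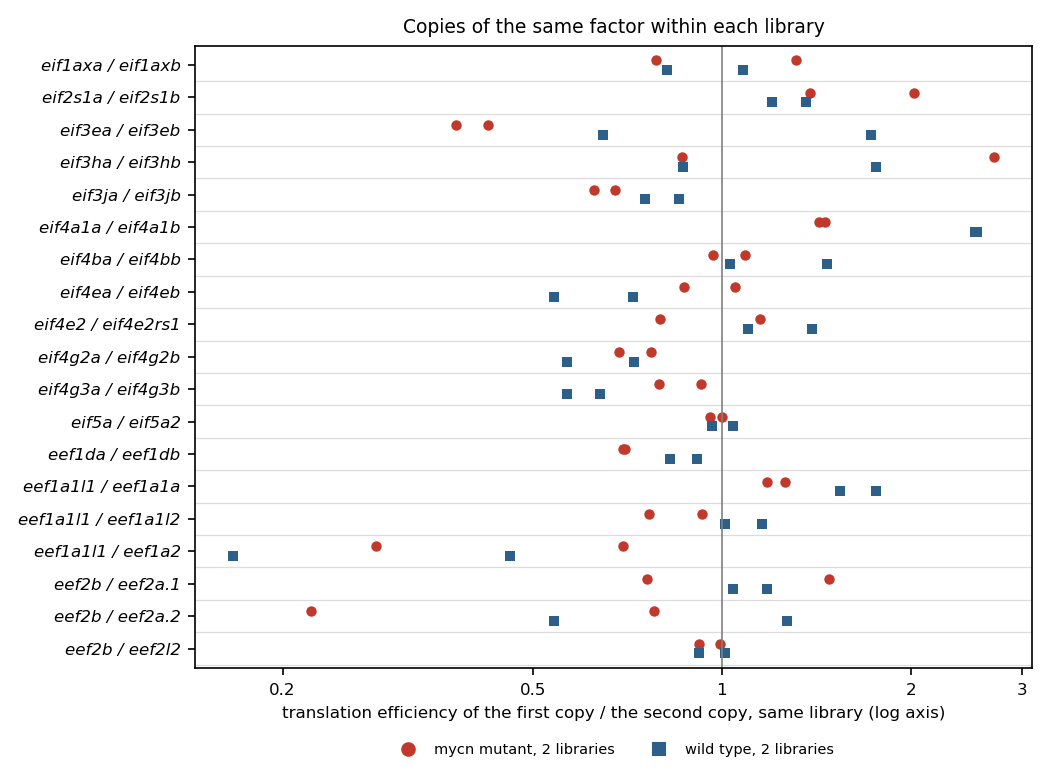
Ratio of translation efficiency between copies of the same factor, within each library, on a log axis; red circles are the 2 mutant libraries and blue squares, below them in each line, the 2 wild-type libraries, and the vertical line marks equal efficiency. For eif4a1a over eif4a1b the mutant ratios of 1.46 and 1.43 lie left of the wild-type ratios of 2.53 and 2.55, while eif5a over eif5a2 stays near 1 in all 4 libraries.

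Genes that act on these factors or take over from them gave no call either. Over all 17601 tested genes, 9035 log2 folds were positive and 8566 negative. Of 18 tested regulators of initiation, 7 had positive and 11 negative log2 folds, with a median of -0.113. The eIF4E-binding repressor eif4ebp3l had 0.746 and 0.625 in mutants, against 1.03 and 1.06 in wild type (log2 fold -0.55, SE 0.197, limma adjusted p = 0.428), with shared values in 3 libraries. For pdcd4b, an eIF4A inhibitor, the values were 0.699 and 0.667, against 1.05 and 0.941 (limma adjusted p = 0.460), with a shared value in 1 library. The 5 tested poly(A)-binding and partner genes were all positive, with a median of 0.13. They were led by paip2b, a repressor of the poly(A)-binding protein, at 1.24 and 1.16 in mutants, against 0.832 and 0.826 in wild type (limma adjusted p = 0.453), with shared values in 2 libraries. In that list pabpc1b, a gene of the binding protein itself, had 1.12 and 1.27, against 1.01 and 1.07 (limma adjusted p = 0.752). Its copy pabpc1a had 0.529 and 0.505 in mutants, against 0.491 and 0.510 in wild type, and overlapped.

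In termination and recycling, 5 of 7 were positive with a median of 0.152. The ribosome-rescue factor pelo had 0.686 and 0.698 in mutants, against 0.399 and 0.447 in wild type (limma adjusted p = 0.393), with a shared value in 1 library. The release-factor copy etf1a had 1.53 and 1.88, against 0.811 and 1.10 (limma adjusted p = 0.402), with shared values in all 4 libraries. The other copy, etf1b, had 0.721 and 0.724, against 0.646 and 0.709 (log2 fold 0.08). The hypusine enzymes dhps and dohh, which modify eIF5A, overlapped between genotypes, with a median of 0.07. The 7 genes of diphthamide synthesis, which modify eEF2, had a median of 0.421, with 6 positive. The list's median log2 gap between mutant replicates, with 0.1 added to each value, was 0.826, beside 0.309 over all tested genes. Of these 7, all but dph6 had shared values in all 4 libraries. Among them, dph6 had 17.1 and 17.8 in mutants, against 11.6 and 11.7 in wild type (adjusted p = 0.400), and dph3 had 0.482 and 1.78, against 0.314 and 0.426 (adjusted p = 0.564). The 9 tested mitochondrial translation factors had a median of -0.019. Of these, tsfm, the mitochondrial counterpart of the eEF1A exchange factor, had 0.968 and 0.978 in mutants, against 1.77 and 1.86 in wild type (log2 fold -0.84, SE 0.189, limma adjusted p = 0.320), with a shared value in 1 library. The mitochondrial initiation factor mtif2 had 0.654 and 0.590, against 0.399 and 0.406 (limma adjusted p = 0.430), with shared values in 3 libraries. A further one, mtrf1, was listed at 0 in both mutant libraries.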

How the data were processed

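The authors deposited 1 ratio per gene and Ribo-seq library (4 in all), the gene's translation efficiency, built on FPKM per the file headers. The RNA-seq sample used as denominator, and any filter or offset, are not given in the sources used here. STAR, featureCounts and limma with genome build GRCz11 are named in the submitters' processing notes, without versions or roles. Depth is unknown, since no counts were analysed here.

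Genes listed at 0 in any library (3791) were left out. The 17601 others were fitted together with limma 3.58.1 (R 4.3.3), two-sided and with moderated variances that follow the mean level, after a log2 transform with a pseudocount of 0.1, with 2 residual degrees of freedom, and p-values were adjusted over all genes. Fold changes on this scale understate those of low ratios. Full statistics go to the 3 factors with the smallest p in each group, or 2 in groups of fewer than 5; further members are named with their values. The members and lists were chosen with earlier results of these data known. No sequence tables were used. The code of the fit was run on simulated, normally distributed values with known folds. These had no shared values and no common mRNA sample, so that run cannot show how well the model suits these ratios.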

Additional observations from a re-analysis of the deposited data

How the results depend on the processing

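No factor passed at an adjusted p under 0.05 in limma under any of the 11 alternatives, and 19 of 25 factors given full statistics kept their direction throughout. The median log2 fold of all factors ran from -0.058 to -0.002. With no filter 177 of 21392 genes were called, with a pseudocount of 1, 6 genes, and among genes with no shared value 36 of 2626. None of these was a factor. Quantile normalization, median centring, the fit without a trend and the replicate block called no gene at all, so they say nothing particular about the factors. The fits with a library left out had 1 residual degree of freedom, so their lack of calls cannot be read either. Among the 24 factors with no shared value, 4 had higher (16.7%) and 7 lower (29.2%) mutant values without overlap. Over all tested genes with no shared value these shares were 22.7% and 29.1%. Leaving out a library, which makes overlap rarer by construction, gave 18 to 27 higher and 26 to 29 lower factors. The counts for left-out libraries have no all-gene share beside them, so they were not compared with the background. With a pseudocount of 1, which shrinks low ratios, the group median was -0.093 for eIF2, -0.252 for eif2a with eif2d, -0.064 for eIF2B and -0.06 for eIF4. Among genes with no shared value it was -0.168 for eIF4, 0.026 for eEF1 and 0.008 for the enzymes and partners. Over the left-out libraries it ran from -0.045 to 0.023 for eIF1, -0.199 to -0.115 for eIF2, -0.306 to 0.002 for eIF2B, -0.02 to 0.016 for eIF3, -0.174 to -0.03 for eIF4, -0.061 to 0.069 for eIF5, 0.044 to 0.173 for eEF1, -0.012 to 0.255 for eEF2 and -0.309 to -0.002 for the enzymes and partners. Single factors changed sign when a library was left out, with log2 folds from -0.062 to 0.486 for eif1axa, -0.306 to 0.002 for eif2b4, -0.105 to 0.036 for eif5a, -0.377 to 0.49 for eef2a.1, -0.571 to 0.066 for eef1e1 and -0.055 to 0.688 for eef1akmt1. The causes were not tested. The replicate differences of the genotypes correlated at 0.00967 over 17601 genes, so no effect shared by replicate number was seen. This cannot show whether libraries of the same replicate number came from the same clutch or batch, which the labels do not say. With replicate number as a block no gene was called, and so no factor (smallest adjusted p of a factor in limma 0.427). The median log2 fold of the factors was then -0.032. Depth is unknown, so counting error could not be separated from other spread.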
